A study of Mus musculus with 17 samples.

Results

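10 genes of the Notch and TGF-beta/BMP pathways were followed in the transcriptome of Kupffer cells (KCs), which are macrophages residing in the sinusoids of the mouse liver. They were the receptors Notch1 and Notch2, the nuclear effector Rbpj, the Notch target Hes1, the TGF-beta and BMP receptors Acvrl1, Tgfbr1, Tgfbr2 and Bmpr2, and the inhibitory SMADs Smad6 and Smad7. They were chosen by name, and all 10 were found among the 25124 genes of each of the 3 tables of expression values and passed the filter on low values in all 3. The 17 libraries were bulk RNA-seq of sorted KCs from liver. TIM4+CD206+ KCs and TIM4+CD206hi KCs gave 3 libraries each from untreated, tumour-free livers and 3 each from livers into which tumour cells had been injected by the intraportal route 2 weeks before. The study's methods name pancreatic carcinoma lines among the cells used for such tumours. The remaining libraries came from KCs of untreated mice, 3 of the genotype Id3f/f and 2 of the genotype Clec4fCreId3f/f. All 5 carried the floxed Id3 allele, and in Clec4fCreId3f/f mice cre is expressed from Clec4f, a gene that KCs acquire after birth. Ages were not given in the labels. For the Id3 experiment the study names as many Clec4fCreId3f/f mice and Id3f/f littermates as there are libraries. Nothing in the labels says whether the tumour-experiment libraries of a group came from separate mice, and p-values measure the spread between these libraries.

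Notch receptors are cut when they bind a Delta-like or Jagged ligand on a neighbouring cell, and the released domain joins RBPJ on DNA to switch on targets such as Hes1 and Hey1. TGF-beta binds TGFBR2, which recruits TGFBR1 and activates SMAD2 and SMAD3, whereas BMP ligands act through BMPR2 with receptors such as ACVRL1 and activate SMAD1 and SMAD5. SMAD6 and SMAD7 dampen these signals. In the liver, Delta-like ligands of sinusoidal endothelial cells and TGF-beta family ligands of endothelial and stellate cells are known to impose the KC programme on macrophages that enter the KC niche.

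The deposited expression values are log2 values and behave like a regularized log, which pulls genes with few reads towards their mean, so their differences are understated. Each table was normalized by itself. Values were therefore tested only within a table, with limma over all genes that passed the filter, and a gene was called where the Benjamini-Hochberg adjusted p was under 0.05. The values transformed back to the linear scale summed, in units of 1000000 per library, to between 34.08 and 39.68 in TIM4+CD206+ KCs, between 32.64 and 35.1 in TIM4+CD206hi KCs and between 21.82 and 24.04 in the Id3 table.

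The labelled cell type was checked against 12 KC markers. All 12 passed the filter in each table, and Clec4f, a KC lectin, was the most abundant of them in both tumour tables, at 18.47 to 19.65 in TIM4+CD206+ libraries and 17.60 to 18.45 in TIM4+CD206hi libraries. RNA of liver endothelium was also present. The 23 endothelial markers, from which Cdh5 and Pecam1 were left out because KCs express them, took 0.0262 to 0.0772% of the summed values in TIM4+CD206+ KCs, 0.557 to 1.42% in TIM4+CD206hi KCs and 0.0588 to 0.0787% in the Id3 table, with the scavenger receptor Stab2 or the lectin Clec4g as the most abundant marker, and none of the 23 was listed at 0. Several of the 10 genes are also transcribed in sinusoidal endothelium. In a bulk sample, fewer cells of a type and less RNA per cell cannot be told apart. The part of endothelial RNA in the levels of the 10 genes was not tested.

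Libraries of 1 group differed. In TIM4+CD206+ tumour-free KCs, replicate 2 stood below the others in endothelial markers, with a list mean of 6.86 against 8.79 and 8.32, and above them in Tgfbr2 and Smad6. Leaving it out raised the number of genes called with tumour from 469 to 1022. In TIM4+CD206hi tumour-free KCs, leaving out replicate 2 raised that number from 1053 to 3634, and replicate 3 had the lowest Smad6, at 7.16, and the lowest Tgfb1, the main TGF-beta ligand, at 8.68 against 10.83 and 11.67.

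Levels of the 10 genes were first compared with each other after division by exon length, as the group's mean log2 value minus the log2 of the exon length in kb. Of the genes tested, 98.4 to 98.6% had such a length. In TIM4+CD206+ tumour-free KCs, Acvrl1, a type I receptor for BMP9 and BMP10, led with 11.48, above 92.9% of tested genes. Tgfbr2, the receptor that binds TGF-beta itself, followed with 8.67, above 72.5%. Hes1 (6.80), Notch2 (6.65), Tgfbr1 (6.46) and Notch1 (6.16) formed a middle group in which neighbours were closer than the larger of their SDs, which ran from 0.23 to 0.47. Smad7 (4.88), Rbpj (4.81), Smad6 (4.70) and Bmpr2 (4.04) were lowest, again with neighbours within their spread, and Bmpr2 stood above only 19.4% of tested genes.

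The order differed in the other tables. In TIM4+CD206hi tumour-free KCs, Acvrl1 (10.35), Tgfbr2 (9.57) and Tgfbr1 (8.57) led on the same per-kb scale. Notch1 (7.84) and Bmpr2 (7.83) came next, above 56.1% of tested genes each, and Smad6 (6.73), Rbpj (6.70), Notch2 (6.66) and Smad7 (6.43) were lowest and lay within their spread. In Id3f/f KCs, Acvrl1 (9.97) and Hes1 (9.86) were first and closer to each other than the SD of Hes1, 0.31. Smad6 (8.30) came next, above 70.6% of tested genes against 26.7% in TIM4+CD206+ and 40.0% in TIM4+CD206hi tumour-free KCs. Hes1 stood above 86.2% of tested genes in Id3f/f KCs and above 51.6% and 50.9% in the tumour-free subsets. Rbpj was lowest, above 20.4%. Because the tables were normalized separately, these shares are set side by side without a test.

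**Figure D1:**
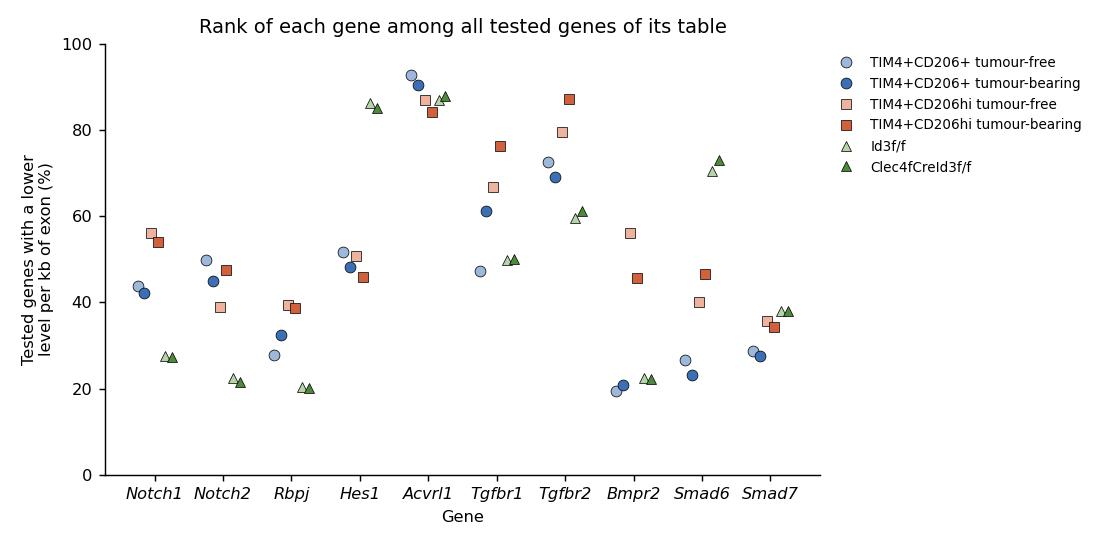
Share of all tested genes of the same table with a lower level per kb of exon (y axis, percent) for each of the 10 genes (x axis), with 1 point per group. Acvrl1 sits above 84.1% or more of tested genes in every group, whereas Hes1 and Smad6 rank much higher in the Id3 table than in the tumour tables.

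The tumour comparison asked how these receptors and regulators stand in KCs of tumour-bearing livers. Tgfbr1, the type I receptor kinase through which TGF-beta signals, was called in both KC subsets when no block for the replicate number was fitted, and was higher in each. The other 9 genes did not pass the test in either subset. Among the 10 genes in TIM4+CD206+ KCs, 1 was called, and it was higher, where 3.54% of 13233 tested genes were called, 2.55% higher and 0.998% lower. With a block for the replicate number 1026 rather than 469 genes were called, and still 1 of the 10. Groups lay apart without overlap for 3 of the 10 and for 23.4% of tested genes, where Tgfbr1 and Rbpj were higher (12.9% of tested genes) and Acvrl1 was lower (10.5%). Among the 10 genes in TIM4+CD206hi KCs, 1 was called, and it was higher, where 7.23% of 14561 tested genes were called, 5.21% higher and 2.03% lower. Such a gap was found for 4 of the 10 and for 30.7% of tested genes, with Notch2, Tgfbr1 and Tgfbr2 higher (15.6% of tested genes) and Acvrl1 lower (15.2%). The median difference of the 10 genes was -0.15 and 0.10, beside 0.017 and 0.028 over all tested genes.

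Tgfbr1 lies on the plus strand of chromosome 4 at positions 47353222 to 47414931 of GRCm38 and its exons overlap no other annotated gene. In TIM4+CD206+ KCs its values were 8.88, 9.04 and 9.51 in tumour-free libraries and 10.20, 10.61 and 10.20 in tumour-bearing libraries. All 3 tumour-bearing libraries were above all 3 tumour-free libraries. The difference was 1.20 (SE 0.23, 95% interval 0.67 to 1.73, adjusted p = 0.0298), a 2.29-fold higher value. In TIM4+CD206hi KCs the values were 11.39, 11.34 and 11.04 without tumour and 12.20, 12.10 and 11.96 with tumour. Again the groups did not overlap. The difference was 0.83 (SE 0.17, 95% interval 0.44 to 1.23, adjusted p = 0.0263), or 1.78-fold. It was 0.67 with an adjusted p of 0.0773 when each library was centred on its median. With 1 library left out, the direction held each time, and the adjusted p ran from 0.0302 to 0.119 in TIM4+CD206+ KCs and from 0.0133 to 0.166 in TIM4+CD206hi KCs. The call in both subsets needed tumour-free replicate 1 and each of the 3 tumour-bearing libraries. Whether the subsets differ in this change was not tested, since the tables were normalized separately.

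The sequence before the start of Tgfbr1 is shown because it is the member that was called, together with that of Ltbp3, a binder of latent TGF-beta that was called in TIM4+CD206hi KCs. Promoters of 7 of the 10 members were in the RefSeq table (GRCm38.p6). Capitals mark matches, on either strand, to 4 motifs, namely the SMAD element GGCGCC, the SMAD box CAGAC, the RBPJ core TGGGAA and the AP-1 element TGACTCA, none of which overlap each other here.
Tgfbr1, chr4:47352972-47353221, plus strand: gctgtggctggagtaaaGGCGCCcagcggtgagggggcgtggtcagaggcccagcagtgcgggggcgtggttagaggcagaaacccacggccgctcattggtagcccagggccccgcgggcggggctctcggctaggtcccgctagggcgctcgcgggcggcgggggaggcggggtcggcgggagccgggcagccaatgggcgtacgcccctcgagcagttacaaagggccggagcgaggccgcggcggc
Ltbp3, chr19:5740650-5740899, plus strand: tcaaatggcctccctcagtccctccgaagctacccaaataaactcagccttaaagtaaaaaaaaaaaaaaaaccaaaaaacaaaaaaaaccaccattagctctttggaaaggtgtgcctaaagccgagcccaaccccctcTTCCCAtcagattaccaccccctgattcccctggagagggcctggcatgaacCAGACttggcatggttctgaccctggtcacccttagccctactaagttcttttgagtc

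These are the 250 bases before the listed start, for Tgfbr1 the first of 2 listed starts. The Tgfbr1 sequence was 74.8% G or C with 29 CG pairs, the Ltbp3 sequence 47.2% with 2, and the median over 32851 promoters was 52.4% with 6. GGCGCC, found once before Tgfbr1, was in 9.6% of all these promoters. CAGAC and TGGGAA, found once each before Ltbp3, were in 42.2% and 21.6%, and TGACTCA, found in neither, in 4.5%. The 250 bases before Jag2, which was also called in TIM4+CD206hi KCs, are not printed. They held none of these motifs and were 87.2% G or C with 54 CG pairs. A match is a description of the letters and not a bound site.

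The partner receptor Tgfbr2 was not called. In TIM4+CD206+ KCs its values were 11.11, 12.65 and 11.35 without tumour and 11.22, 11.88 and 11.06 with tumour, and the groups overlapped. The difference was -0.32 (adjusted p = 0.771), and ran from -0.62 without tumour-free replicate 1 to 0.15 without tumour-free replicate 2. In TIM4+CD206hi KCs the values were 12.73, 13.09 and 11.98 without tumour and 13.43, 13.38 and 13.47 with tumour. Here every tumour-bearing library was above every tumour-free library, and the tumour-bearing libraries were much closer together. The difference was 0.83 (SE 0.28, adjusted p = 0.146), which passed the test in 1 of 12 alternatives, without tumour-free replicate 2 (1.07, adjusted p = 0.0189). It was 0.52 (adjusted p = 0.0688) without tumour-free replicate 3.

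Among the BMP-side receptors, Acvrl1 was lower with tumour in both subsets without passing the test. Its values in TIM4+CD206+ KCs were 13.67, 13.03 and 13.51 against 12.79, 12.96 and 12.97 with tumour. The groups did not overlap, and tumour-free replicate 2 lay closest to the tumour-bearing libraries. The difference was -0.50 (SE 0.19, adjusted p = 0.234), and -0.69 with an adjusted p of 0.0158 without that library. In TIM4+CD206hi KCs the values were 12.44, 12.16 and 12.23 against 12.02, 12.06 and 11.90, again without overlap, and the difference was -0.28 (adjusted p = 0.329). Bmpr2, the type II receptor for BMPs, overlapped between groups in both subsets, with 8.08, 7.28 and 7.82 against 8.26, 7.48 and 8.14 in TIM4+CD206+ KCs. Its differences were 0.23 (adjusted p = 0.792) in TIM4+CD206+ KCs and -0.52 (adjusted p = 0.373) in TIM4+CD206hi KCs, where tumour-free values of 11.61, 10.86 and 12.09 stood against 10.85, 11.09 and 11.07. The former ran from 0.012 without tumour-free replicate 2 to 0.47 without tumour-bearing replicate 2. The latter was -0.85 with an adjusted p of 0.0228 without tumour-free replicate 2, and -0.23 with an adjusted p of 0.602 without tumour-free replicate 3.

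Notch2 did not pass the test in either subset. In TIM4+CD206hi KCs its values were 10.37, 9.80 and 10.01 without tumour and 10.85, 10.61 and 11.07 with tumour. The groups did not overlap, and the difference was 0.79 (SE 0.22, 95% interval 0.28 to 1.30), but the adjusted p was 0.0800. In TIM4+CD206+ KCs the values were 10.01, 10.53 and 9.59 against 9.99, 9.34 and 9.69, and the difference was -0.37 (adjusted p = 0.582) with overlapping groups, and ran from -0.59 without tumour-free replicate 3 to -0.12 without tumour-free replicate 2. Notch1 was 9.40, 9.78 and 9.04 against 9.44, 9.54 and 8.99 in TIM4+CD206+ KCs and 11.51, 10.74 and 11.00 against 10.96, 11.09 and 11.22 in TIM4+CD206hi KCs. The groups overlapped in both, and Notch1 showed differences of -0.08 and 0.01 (adjusted p = 0.931 and 0.980). The 95% intervals were -0.67 to 0.51 and -0.52 to 0.54, so changes of a size within them remain possible. Exons of Notch1, Notch2 and Acvrl1 overlap those of other annotated genes, by up to 964 bases for Notch1, and whether counting used the strand was not given in the sources used here.

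Rbpj, which binds the Notch domain on DNA, was 7.71, 7.72 and 7.38 in TIM4+CD206+ tumour-free KCs and 8.24, 7.98 and 8.02 with tumour. The groups did not overlap and the difference was 0.48 (SE 0.23, adjusted p = 0.344). For TIM4+CD206hi KCs, it was 0.14 (adjusted p = 0.681) with overlapping groups. The latter ran from 0.059 without tumour-free replicate 2 to 0.29 without tumour-free replicate 3 (adjusted p = 0.830 and 0.204). Hes1, the target gene, was 7.53, 7.45 and 7.09 against 7.12, 7.0 and 7.29 in TIM4+CD206+ KCs and 7.69, 8.52 and 7.93 against 7.90, 7.68 and 8.11 in TIM4+CD206hi KCs. The groups overlapped in both subsets, with differences of -0.22 (adjusted p = 0.731) and -0.15 (adjusted p = 0.763).

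The inhibitory SMADs varied more between libraries than between groups. Smad6, which acts mainly on BMP signals, was 5.79, 7.19 and 5.83 in TIM4+CD206+ tumour-free KCs and 5.74, 6.28 and 6.15 with tumour. In TIM4+CD206hi tumour-free KCs it was 8.49, 9.24 and 7.16, against 8.94, 8.79 and 9.10 with tumour. The tumour-free libraries thus spanned a wider range than the tumour-bearing ones in both subsets, and the differences were -0.21 (adjusted p = 0.861) and 0.65 (adjusted p = 0.468). The first ran from -0.46 without tumour-free replicate 1 to 0.25 without tumour-free replicate 2. The second was 0.081 (adjusted p = 0.877) without tumour-free replicate 3 and 1.12 (adjusted p = 0.0775) without tumour-free replicate 2. Smad7, which acts on TGF-beta and BMP signals, was 6.63, 7.57 and 6.82 against 7.38, 6.91 and 6.69 in TIM4+CD206+ KCs and 8.73, 8.58 and 8.36 against 8.64, 8.45 and 8.77 in TIM4+CD206hi KCs. The groups overlapped, and Smad7 differed by -0.01 (95% interval -0.76 to 0.73) and 0.06 (95% interval -0.41 to 0.54).

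**Figure D2:**
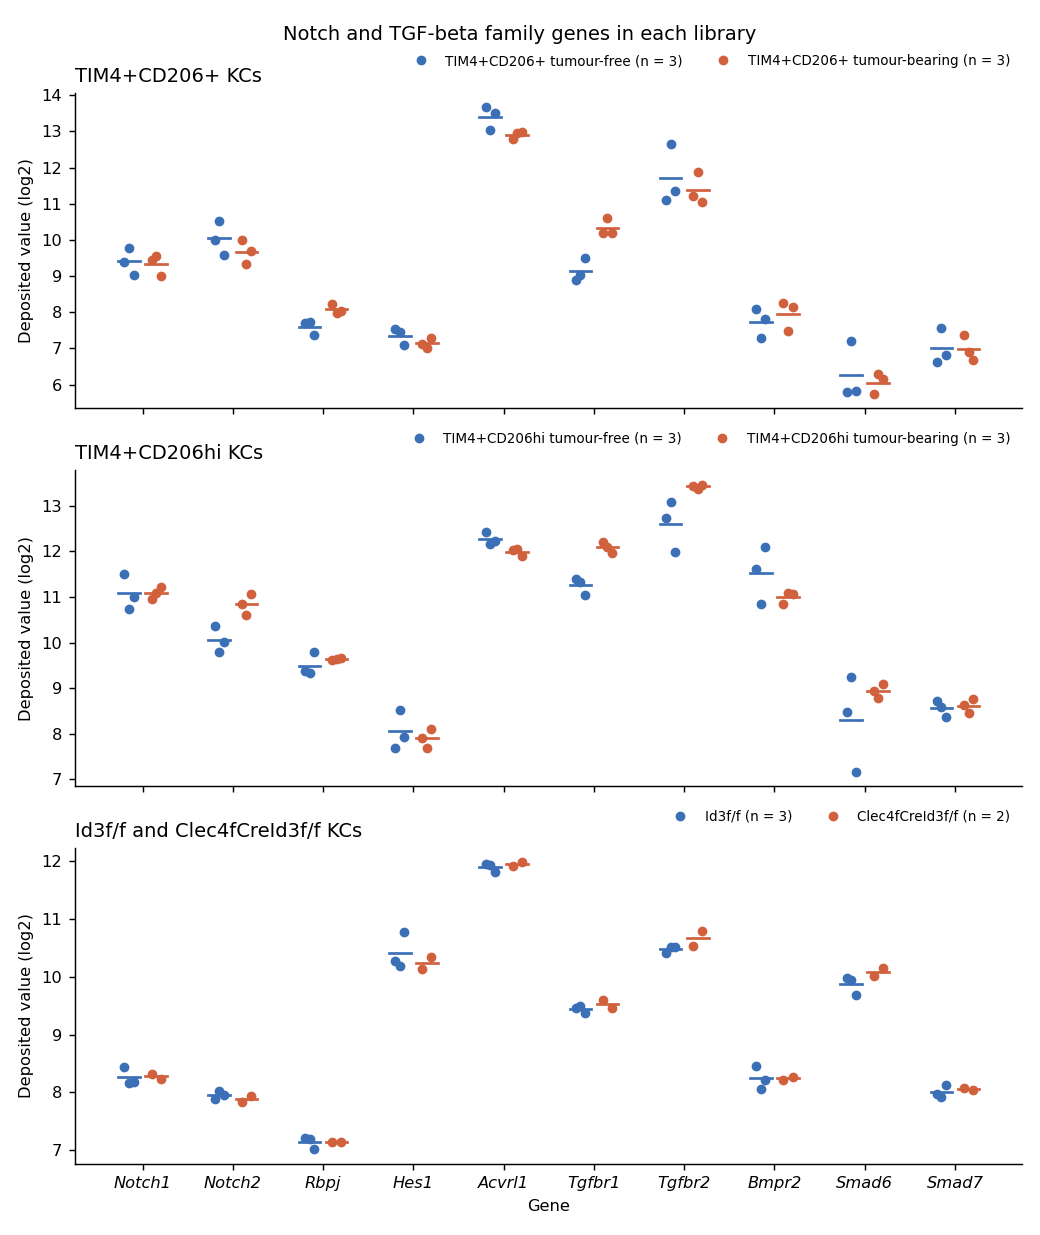
Deposited log2 value (y axis) of each of the 10 genes (x axis) in every library, with 1 point per library and a line at the group mean, for the 3 tables. Only Tgfbr1 was called in both tumour tables, and the groups of the Id3 table lie close together for all 10 genes.

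**Figure D3:**
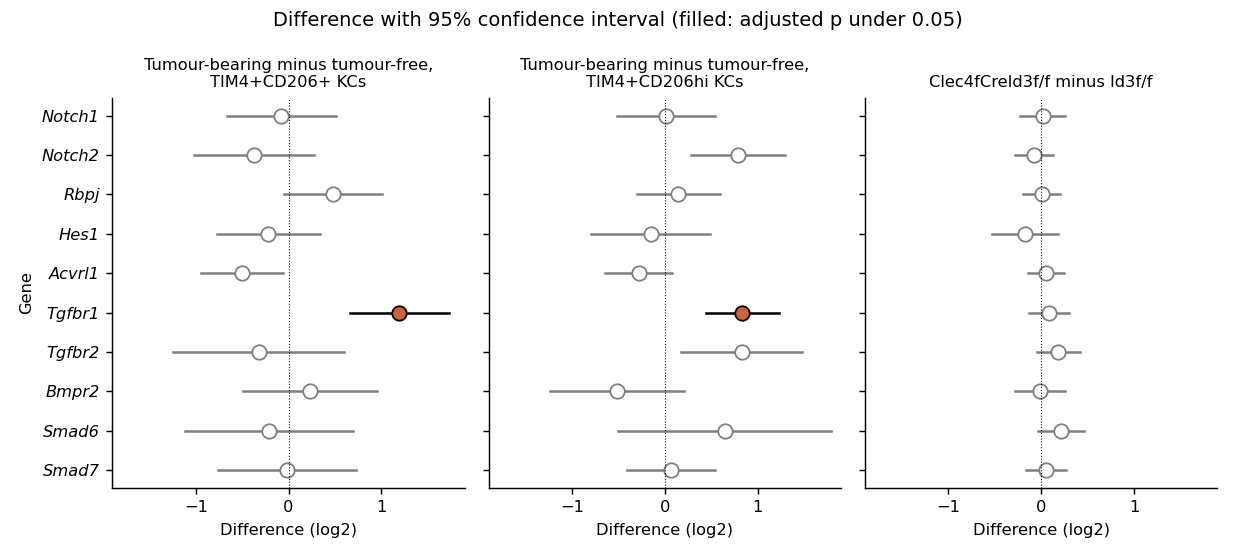
Differences on the log2 scale (x axis) with 95% confidence intervals for the 10 genes (y axis) in the 3 comparisons; filled points had an adjusted p under 0.05. Tgfbr1 is filled in both tumour comparisons, at 1.20 and 0.83, and no gene is filled for Id3 deletion.

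The rest of each pathway was read from a list of 45 Notch genes and a list of 53 TGF-beta and BMP genes, which include the 10. Among Notch genes in TIM4+CD206+ KCs, 0 of 36 tested were called with limma, beside 3.54% of all tested genes. The labels do not say whether equal replicate numbers mark paired libraries, and a block for the number rests on correlations within these same values. With that block, 3 of 36 were called (8.33%), beside 7.75% of all tested genes. Those 3 were Dtx1 and Dtx4, ubiquitin ligases of the Deltex family, and Ncstn, a subunit of the gamma-secretase that cuts Notch. Dtx1 differed by -0.97 (adjusted p = 0.0522, and 0.0179 with the block), Dtx4 by 0.95 (0.0754 and 0.0252) and Ncstn by -0.64 (0.0754 and 0.0325). Dtx1 also passed the test under median centring (-1.04, adjusted p = 0.0223) and quantile normalization (-1.09, adjusted p = 0.0267), and Ncstn without tumour-free replicate 2 (-0.73, adjusted p = 0.0157). The target Hey1 differed by 0.96 (adjusted p = 0.434) and the ligand Dll4 by -0.79 (adjusted p = 0.575). When each library was omitted in turn, Hey1 ran from 0.39 without tumour-free replicate 1 to 1.44 without tumour-free replicate 2, and Dll4 from -1.50 without tumour-free replicate 2 to -0.33 without tumour-free replicate 3, and neither was called in any of these (lowest adjusted p = 0.120 and 0.0580).

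Within TIM4+CD206hi KCs, 2 of 41 tested Notch genes were called (4.88%, beside 7.23% of all tested genes), both higher. Dtx4 values were 7.09, 7.61 and 7.96 without tumour and 8.89, 8.80 and 8.64 with tumour. All tumour-bearing libraries were above all tumour-free ones, and Dtx4 rose by 1.22 (SE 0.26, adjusted p = 0.0355). Jag2, a Jagged ligand, had low values of 4.25, 4.49 and 4.50 against 5.48, 5.58 and 5.12, and rose by 0.98 (SE 0.20, adjusted p = 0.0299). Both calls were lost under median centring, with adjusted p of 0.0765 for Dtx4 and 0.0792 for Jag2, and when tumour-free replicate 1 or tumour-bearing replicate 1 or 2 was left out (adjusted p up to 0.176 and 0.143), and that of Dtx4 also when tumour-bearing replicate 3 was. Hey1 had the largest difference of the list, 1.94 (adjusted p = 0.0660), from 7.33, 8.76 and 6.96 to 10.20, 9.54 and 9.14. It passed the test under centring (1.78, adjusted p = 0.0414) and without tumour-free replicate 2 (2.48, adjusted p = 0.00361). The count of Notch genes called was 8 without that library (19.5%, beside 25% of all tested genes) and 5 without tumour-free replicate 3 (12.2%, beside 8.76%). It was 1 of 41 (2.44%) without tumour-free replicate 1 or tumour-bearing replicate 3, beside 4.46% and 4.37%. Without tumour-bearing replicate 1 or 2 it was 0, beside 3.98% and 4%.

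Among the TGF-beta and BMP genes, 2 of 39 tested were called in TIM4+CD206+ KCs (5.13%, beside 3.54% of all tested genes) and 3 of 47 in TIM4+CD206hi KCs (6.38%, beside 7.23%), all higher. With the block for the replicate number, the count in TIM4+CD206+ KCs was again 2 of 39 (5.13%), beside 7.75% of all tested genes. Tgfbr1 and Pmepa1 were called in both subsets. Pmepa1 is a TGF-beta target whose product restrains the SMADs. Its values in TIM4+CD206+ KCs were 5.15, 5.31 and 5.19 without tumour and 6.86, 6.26 and 6.51 with tumour. The tumour-free libraries were tightly grouped and all below the tumour-bearing ones, and Pmepa1 rose by 1.33 (SE 0.23, adjusted p = 0.0192), or 2.51-fold. For TIM4+CD206hi KCs, the values were 6.70, 6.41 and 6.97 against 7.93, 7.96 and 7.69, with no overlap, and Pmepa1 rose by 1.17 (SE 0.23, adjusted p = 0.0233), or 2.25-fold. Under median centring the latter was 1.01 with an adjusted p of 0.0735. With 1 library left out the adjusted p of Pmepa1 reached 0.0785 in TIM4+CD206+ KCs, where the call was lost without replicate 1 or 3 of either group, and 0.132 in TIM4+CD206hi KCs, where it was lost without tumour-free replicate 1 and each tumour-bearing library.

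Ltbp3 was the other gene called in TIM4+CD206hi KCs. Its values were 5.95, 6.17 and 5.54 without tumour and 7.79, 7.76 and 7.94 with tumour. The gap between groups was wider than either group's range, and Ltbp3 rose by 1.95 (SE 0.23, adjusted p = 0.00258), or 3.85-fold. This call held without each of the 6 libraries in turn, with adjusted p up to 0.0200. In TIM4+CD206+ KCs the values were 5.93, 6.11 and 6.05 against 6.86, 7.23 and 6.32, without overlap, and the difference was 0.77 (adjusted p = 0.203). Eng, the co-receptor endoglin, differed there by -0.76 (adjusted p = 0.501), by -1.31 (adjusted p = 0.0624) without tumour-free replicate 2 and by -0.47 without tumour-free replicate 1. The ligand Gdf15 differed in TIM4+CD206hi KCs by 2.07 (SE 0.63, adjusted p = 0.111). Gdf15 ran, over the omission of each library, from 1.64 to 2.86, and it was called only without tumour-free replicate 2 (2.86, adjusted p = 0.000796). Leaving out tumour-free replicate 2, 10 of 47 genes of this list were called in TIM4+CD206hi KCs (21.3%) beside 25% of all tested genes, and 4 of 39 in TIM4+CD206+ KCs (10.3%) beside 7.72%. Without tumour-free replicate 3 the counts were 4 of 47 (8.51%, beside 8.76%) and 1 of 39 (2.56%, beside 1.96%). In TIM4+CD206hi KCs, 1 of 47 (2.13%) was called without tumour-free replicate 1 or any tumour-bearing library, beside 3.98 to 4.46%. In TIM4+CD206+ KCs, 0 of 39 were called without replicate 1 of either group or tumour-bearing replicate 3, beside 1.84 to 1.97%. Without tumour-bearing replicate 2 it was 1 of 39, beside 1.75%.

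Fewer ligands passed the filter in TIM4+CD206+ than in TIM4+CD206hi libraries. Of the Notch ligands, Dll4 and Jag2 passed in the former, Dll1, Dll3 and Jag1 did not, and Dll3 was listed at 0. Within TIM4+CD206hi KCs, all Notch ligands but Dll3 passed, with Dll4 at 11.66, 11.41 and 10.32 without tumour and 10.70, 10.99 and 10.95 with tumour. Bmp2 was 11.59 to 13.66 across TIM4+CD206hi libraries, where Bmp4, Bmp6, Bmp7, Gdf2, Inhba, Inhbb and Tgfb2 also passed; of these only Bmp6 passed in TIM4+CD206+ KCs. Tgfb1 passed in both tables, with tumour differences of 0.15 (adjusted p = 0.905) and 0.96 (adjusted p = 0.443). Over the omission of each library, the former ran from -0.18 without tumour-free replicate 1 to 0.48 without tumour-free replicate 2, and was also below 0, at -0.14, without tumour-bearing replicate 2. The latter was 0.11 (adjusted p = 0.835) without tumour-free replicate 3 and 1.60 (adjusted p = 0.0846) without tumour-free replicate 2. Dll4, at -0.25 (adjusted p = 0.689) in TIM4+CD206hi KCs, was -0.65 (adjusted p = 0.0495) without tumour-free replicate 3. It was -0.11 when replicate 2 of that group was omitted and 0.015 (adjusted p = 0.983) when replicate 1 was. The TIM4+CD206hi table is also the one with the larger endothelial share, and the part of that RNA in the ligand levels was not tested.

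**Figure D4:**
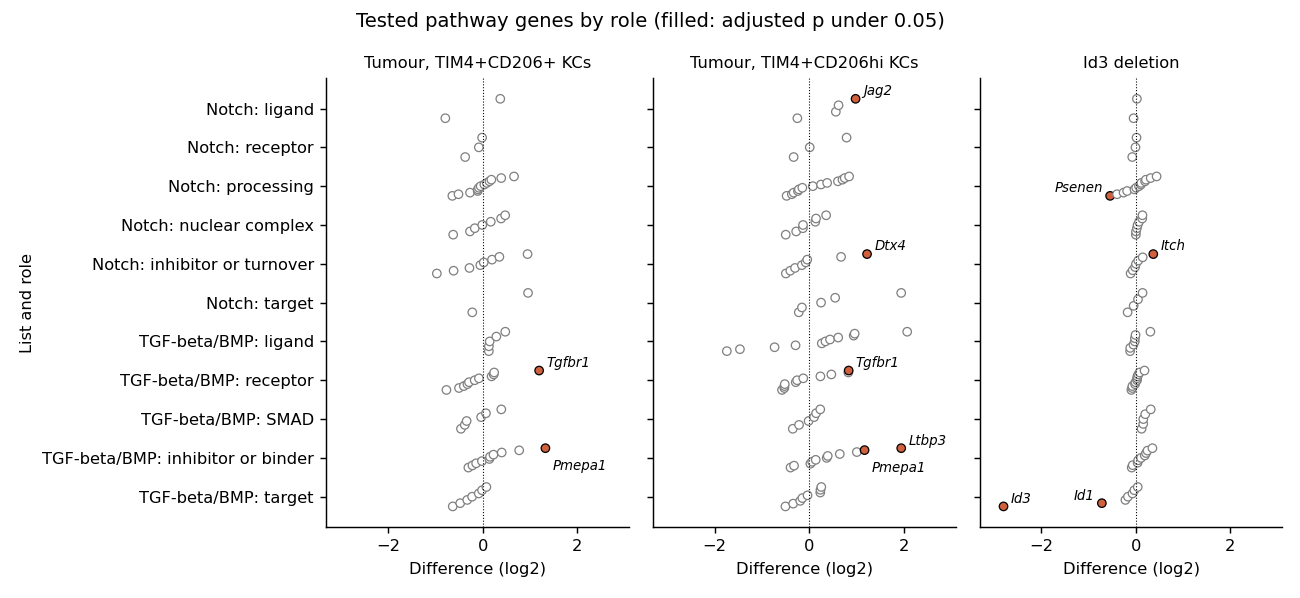
Difference on the log2 scale (x axis) of the tested genes of the Notch and the TGF-beta/BMP list, 1 gene left out, grouped by role (y axis), in the 3 comparisons; each point is 1 gene and filled, named points had an adjusted p under 0.05. Tgfbr1 and Pmepa1 are filled in both tumour panels and Ltbp3, Dtx4 and Jag2 in TIM4+CD206hi KCs only, although the difference between subsets was not tested.

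Markers of other cells moved with tumour in both subsets. Of 10 epithelial tumour markers, 9 were tested and all 9 rose in each subset. They took 0.00547 to 0.00948% of the summed values without tumour and 0.118 to 0.137% with tumour in TIM4+CD206+ KCs, and 0.00571 to 0.00779% against 0.166 to 0.178% in TIM4+CD206hi KCs, led by the keratin Krt8. Monocyte markers rose for 4 of 8 and neutrophil markers for 5 of 7 in each subset, and the monocyte share was 0.0364 to 0.0765% against 0.108 to 0.115% in TIM4+CD206+ KCs and 0.0476 to 0.0629% against 0.0963 to 0.102% in TIM4+CD206hi KCs. Hepatocyte markers fell for 7 of 10 and 6 of 10, with Alb or Apoa1 the most abundant. Their part in the values of Tgfbr1, Pmepa1, Ltbp3, Dtx4 and Jag2 was not tested.

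Endothelial markers had lower means with tumour for most of the list in both subsets. For TIM4+CD206hi KCs, 20 of 23 had a lower mean, with a median difference of -0.87, and 6 fell, among them Clec4g and Ehd3, while 0 rose. The list mean was 13.28, 12.77 and 12.75 without tumour and 12.07, 12.29 and 12.38 with tumour. For TIM4+CD206+ KCs, 19 of 21 tested had a lower mean, with a median difference of -0.63, but 0 were called, and the list mean was 8.79, 6.86 and 8.32 against 6.96, 6.81 and 8.14 with overlapping groups. Acvrl1 in both subsets and Bmpr2 in TIM4+CD206hi KCs had lower means with tumour, like this list, and the part of endothelial RNA in that was not tested. KC markers had a lower mean with tumour for 11 of 12 in TIM4+CD206+ KCs (median difference -0.42) and 10 of 12 in TIM4+CD206hi KCs (-0.30). In TIM4+CD206+ KCs 3 of 12 were called lower, namely Adgre1, Csf1r and Timd4, and 0 of 12 were called in TIM4+CD206hi KCs. The KC marker share was 4.57 to 5.73% against 3.43 to 3.67% in TIM4+CD206+ KCs. It was 2.53 to 3.72% against 2.44 to 2.76% in TIM4+CD206hi KCs. The part of these shifts in the pathway genes was not tested. Of the stellate cell markers, 0 of 9 were called in TIM4+CD206+ KCs, and 2 of 9 fell in TIM4+CD206hi KCs, where Dcn led. B cell markers fell for 3 of 4 and 2 of 5, and 0 of 7 T or NK cell markers were called in either subset. All 4 tested sex-linked genes had a higher mean with tumour in TIM4+CD206+ KCs, 3 without overlap, and 0 were called. The Y-linked Ddx3y was 8.30, 7.19 and 8.76 against 9.28, 9.23 and 8.99 there. In TIM4+CD206hi KCs, 1 of 4 had a higher mean and 0 were called, and Ddx3y was 12.154, 11.705 and 12.475 against 11.847, 11.756 and 11.782. Xist, the remaining gene of this list, was listed at 0 in the TIM4+CD206+ libraries and did not pass the filter in the TIM4+CD206hi libraries. The part of sex in the tumour differences was not tested.

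**Figure D5:**
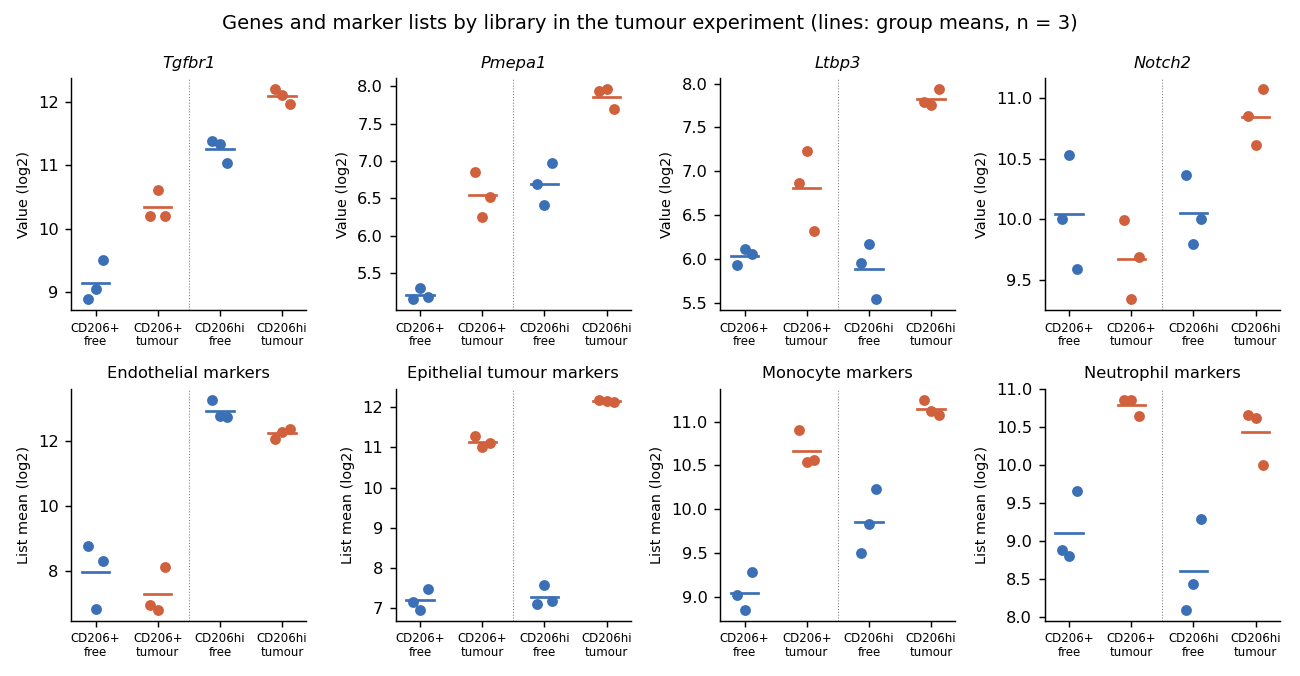
Log2 values of Tgfbr1, Pmepa1, Ltbp3 and Notch2 and list means of endothelial, epithelial tumour, monocyte and neutrophil markers (y axes) in each of the 12 libraries of the tumour experiment (x axis), with lines at group means. The values of Tgfbr1 and of the epithelial, monocyte and neutrophil lists are higher with tumour in both subsets, while endothelial list means are lower on average with tumour in both, with overlap between groups in TIM4+CD206+ KCs; levels of the 2 subsets come from separately normalized tables.

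The genes whose values were most like those of Tgfbr1 over the 12 tumour-experiment libraries, after centring within each table, were Pbxip1, Mmp25 and Serf1. Their root mean squared differences from Tgfbr1 were 0.185, 0.192 and 0.214, against a median of 0.632 over 13109 genes. Because they were picked for values close to those of Tgfbr1, their tumour differences follow from that choice and are given without a test. Pbxip1, a binder of PBX homeodomain proteins, was 1.18 higher with tumour in TIM4+CD206+ KCs and 0.73 higher in TIM4+CD206hi KCs. Mmp25, a membrane-anchored matrix metalloproteinase known from leukocytes, was 1.31 and 1.09 higher, and Serf1 0.91 and 0.87 higher.

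The second comparison asked whether loss of Id3 in KCs changes the same genes. Id3, itself a target of BMP signals, was 12.58, 12.46 and 12.82 in Id3f/f KCs and 9.83 and 9.82 in Clec4fCreId3f/f KCs. It fell by 2.80 (SE 0.11, adjusted p = 1.405e-06), and both libraries labelled as deleted were below all controls. Clec4f, from which cre is expressed, was 17.59, 17.62 and 17.71 against 16.13 and 16.11 and fell by 1.52. The sexes were not even between the genotypes. Xist was 3.44 higher and the Y-linked Ddx3y 2.44 lower in Clec4fCreId3f/f KCs, and all 5 sex-linked genes were called, so sex and genotype cannot be told apart in this table.

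None of the 10 genes passed the test for Id3 deletion, where 6.44% of 12833 tested genes were called. Of these genes 395 were higher (3.08% of tested genes) and 432 lower (3.37%), and 328 and 550 after median centring. Of the 10, 2 did not overlap between genotypes, both higher after deletion, where 41.9% of tested genes did not overlap and 20.2% were higher without overlap, and the median difference was 0.032 beside 0.0014 over all tested genes. At an unadjusted p under 0.05 the limma count was also 0 of 10, where 23.6% of tested genes passed. In the fit used for the calls, the largest difference was that of Smad6. Its values were 9.97, 9.94 and 9.69 in Id3f/f KCs and 10.02 and 10.15 in Clec4fCreId3f/f KCs. Both deleted libraries were above the controls, by a mean of 0.22 (SE 0.11, 95% interval -0.03 to 0.46, adjusted p = 0.278). This rank did not hold in every alternative. Under median centring Hes1 (-0.20) was larger in size than Smad6 (0.19), and with the replicate block Tgfbr2 (0.20) was larger than Smad6 (0.13). Tgfbr2 was 10.41, 10.51 and 10.52 against 10.53 and 10.79, with a difference of 0.18 (SE 0.10, adjusted p = 0.326). That difference ran from 0.054 without Clec4fCreId3f/f replicate 2 to 0.31 without Clec4fCreId3f/f replicate 1. Smad6 and Tgfbr2 were the 2 genes without overlap.

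Hes1, a helix-loop-helix repressor, was 10.28, 10.19 and 10.77 against 10.14 and 10.34. The groups overlapped, and the difference was -0.17 (95% interval -0.53 to 0.19). For the receptors the intervals were narrower. The difference was 0.08 (95% interval -0.13 to 0.30) for Tgfbr1, 0.05 (-0.14 to 0.25) for Acvrl1, -0.01 (-0.28 to 0.26) for Bmpr2, 0.01 (-0.23 to 0.26) for Notch1 and -0.08 (-0.28 to 0.13) for Notch2. Rbpj was 7.21, 7.20 and 7.02 against 7.15 and 7.14, a difference of 0.0035 (-0.20 to 0.20), and Smad7 differed by 0.05 (-0.17 to 0.27).

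In the wider lists for Id3 deletion, 3 of 37 tested Notch genes (8.11%) and 2 of 39 tested TGF-beta and BMP genes (5.13%) were called, beside 6.44% of all tested genes. The Notch genes called included Psenen, a component of the Notch-cutting protease, and Itch, a ubiquitin ligase that turns Notch over. Psenen was 11.54, 11.37 and 11.49 against 10.86 and 10.98 and fell by 0.54 (adjusted p = 0.0134), whereas Itch, at 9.98, 10.08 and 9.96 against 10.41 and 10.34, rose by 0.37 (adjusted p = 0.0429). Neither genotype overlapped the other in these genes. Under median centring Itch had an adjusted p of 0.0535. Without either deleted library or Id3f/f replicate 1 neither gene was called (adjusted p up to 0.244 for Psenen and 0.404 for Itch). Without Id3f/f replicate 2 Itch had an adjusted p of 0.0647, and without Id3f/f replicate 3 the counts were 6 Notch genes (16.2%) and 6 TGF-beta and BMP genes (15.4%), beside 14.4% of all tested genes. Without Id3f/f replicate 1 the counts were 0 Notch genes and 2 TGF-beta and BMP genes (5.13%), beside 1.61%. Without Id3f/f replicate 2 they were 1 (2.7%) and 2 (5.13%), beside 3.19%. Furin, the protease that first cleaves Notch, differed by 0.44 (adjusted p = 0.140). Over such omissions of 1 library it ran from 0.31 without Id3f/f replicate 1 to 0.62 without Id3f/f replicate 3, where it was called (adjusted p = 0.00220). Besides Id3, Id1, a paralogue and BMP target, was called. Its values were 11.52, 11.37 and 11.19 against 10.58 and 10.70 with no overlap, and it fell by 0.72 (SE 0.11, adjusted p = 0.00844), a call lost without either of the 2 deleted libraries (adjusted p up to 0.173). Smurf1 and Smad4 differed by 0.35 (adjusted p = 0.246) and 0.32 (adjusted p = 0.0799), and Smad4 was called without Id3f/f replicate 3 (0.34, adjusted p = 0.0327). Of the Notch ligands, Dll1 and Dll4 passed the filter in this table, and Jag2 was listed at 0. Of the TGF-beta family ligands, Tgfb1, Tgfb3, Bmp2, Bmp6, Gdf2, Gdf15 and Inhbb passed.

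Markers of some other cells also differed in the Id3 table. The monocyte markers took 0.056, 0.0508 and 0.0618% of the summed values in Id3f/f KCs and 0.0311 and 0.0339% in Clec4fCreId3f/f KCs, without overlap, with Plac8 the most abundant. Plac8 itself was 13.66, 13.50 and 13.78 against 12.63 and 12.76. The monocyte list mean was 7.22, 7.08 and 7.12 against 6.95 and 6.96, and 2 of the 6 tested monocyte markers had a higher mean after deletion. Hepatocyte markers took 0.099, 0.0854 and 0.117% against 0.121 and 0.143%, led by Alb. Their part in the values of the pathway genes was not tested. The endothelial list mean was 8.56, 8.64 and 8.85 against 8.57 and 8.59, with 1 of 22 tested markers called, Clec4g, which was lower. Hepatocyte markers rose for 2 of 10, monocyte markers fell for 1 of 6, and 0 of 10 stellate, 0 of 6 epithelial, 0 of 5 neutrophil, 0 of 4 B cell and 0 of 7 T or NK cell markers were called. Of the KC markers, Adgre1, Csf1r and Cd5l rose and Clec4f and Folr2 fell.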

How the data were processed

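The authors sorted KCs (CD45+F4/80+TIM4+, with CD206 gates for the tumour experiment), amplified RNA with SMART-Seq v4, sequenced paired ends and, per the submitters' processing notes, used STAR 2.7.10a, HTSeq and DESeq2 with mm10. File names speak of counts and column headers of TPM, but what the authors deposited are log2 values that behave like DESeq2's regularized log, made per table. No UMIs were used, and depth is known only as the back-transformed sum. Every column was matched to a sample by its name.

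Genes with a value of at least log2 of 10 counts in as many libraries as the smaller group were tested with limma 3.58.1 (lmFit, eBayes with trend; R 4.3.3), adjusted by Benjamini-Hochberg over all tested genes, without covariates. Differences of regularized values are smaller than those of counts for genes with few reads. Exon lengths and positions are from GENCODE M21 (GRCm38). The fit was first tested on simulated data. In the TIM4+CD206+ libraries, deviations from group means correlated across genes with r of 0.35, 0.564 and 0.149 for equal replicate numbers. Of the unequal pairs, 1 with 3 and 3 with 1 gave r of 0.296 and 0.158 and the other 4 were below 0. Replicate 3 was thus no closer to its own number than to replicate 1, and the labels do not say what a number marks. Deviations within a group sum to 0, so these r depend on each other and cannot settle whether the libraries are paired. No 2 libraries held identical values. The 10 genes, the gene lists and the marker lists were chosen with earlier results of these data known. The genes named were the 10, called genes of both pathway lists filled up to 4 per list by size of difference, the ligands, and the most abundant markers; Ncstn, the other library-dependent calls and the called KC and endothelial markers were named after their values were seen. Alternatives were other filters, no trend, median centring, quantile normalization, a replicate block and leaving out each library. The result of 1 gene of the Notch list is not reported here.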

Additional observations from a re-analysis of the deposited data

How the results depend on the processing

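In TIM4+CD206+ KCs the count of genes called was 1026 with the replicate block, and 231 to 1022 with 1 library left out, at 1022 without tumour-free replicate 2 and at most 261 without each of the other 5. The count of the 10 genes called was 0 to 2 with 1 library left out, and 1 in the other alternatives. For TIM4+CD206hi KCs, 600 genes were called at a mean of at least 50 counts, and 579 to 3634 with 1 library left out, with 3634 when tumour-free replicate 2 was omitted, 1276 for tumour-free replicate 3 and at most 649 for each of the other 4. Of the 10 genes, 0 were called there under median centring and 0 with the replicate block, where Tgfbr1 had an adjusted p of 0.0714 and the calls of Pmepa1 (0.0715), Dtx4 (0.0751) and Jag2 (0.0748) were lost and that of Hey1 gained (0.0404), and 0 to 3 with 1 library left out. For Id3 deletion, 477 genes were called without a filter, 2089 with the replicate block and 17 to 1850 with 1 library left out (207, 410 and 1850 without Id3f/f replicates 1, 2 and 3, and 17 and 19 without Clec4fCreId3f/f replicates 1 and 2), and 0 of the 10 genes in every alternative run. The block there called 6 of 37 Notch genes (16.2%) and 8 of 39 TGF-beta and BMP genes (20.5%), beside 16.3% of all tested genes. Where 1 Clec4fCreId3f/f library was left, it was assumed to vary like the other group. The cause of these shifts was not tested.

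None of the differences that turned sign was called. In TIM4+CD206hi KCs median centring gave -0.15 for Notch1, -0.016 for Rbpj and -0.098 for Smad7, and quantile normalization -0.16 for Smad7. For Id3 deletion Notch1 and Rbpj were -0.013 and -0.024 under median centring, -0.012 and -0.023 under quantile normalization and -0.025 and -0.059 with the replicate block, which gave 0.0048 for Hes1. With 1 library left out, the TIM4+CD206+ ranges were -0.26 to 0.11 for Notch1, -0.62 to 0.15 for Tgfbr2, -0.46 to 0.25 for Smad6 and -0.21 to 0.27 for Smad7. The TIM4+CD206hi ranges were -0.16 to 0.22 for Notch1, -0.33 to 0.083 for Hes1 and -0.034 to 0.15 for Smad7. For Id3 deletion they were -0.035 to 0.11 for Notch1, -0.059 to 0.038 for Rbpj, -0.28 to 0.0048 for Hes1 and -0.10 to 0.099 for Bmpr2. Median centring moved the median of all tested genes by -0.071, -0.16 and -0.028 in the 3 tables. Replicate numbers did not pair the TIM4+CD206hi libraries, with r of -0.048, -0.132 and -0.051 for equal numbers. In the Id3 table r was -0.073 and -0.0996 for equal numbers. With only 2 Clec4fCreId3f/f libraries their deviations mirror each other, so these r cannot show whether numbers pair the libraries there.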
